A study of Mus musculus with 48 samples.

Results

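Monoamines such as dopamine, serotonin and noradrenaline are made, packed into vesicles and broken down by a small set of enzymes and transporters, and 7 of the genes for these steps were followed through 48 RNA sequencing libraries of sorted mouse brain cells. They are Maoa and Maob (monoamine oxidases), Ddc (aromatic amino acid decarboxylase), Gch1 and Qdpr (enzymes that make and recycle the cofactor tetrahydrobiopterin), Slc18a2 (the vesicular monoamine transporter) and Tgm2 (a transglutaminase). The 7 genes were chosen by symbol, for their place in monoamine metabolism and protein monoaminylation, among 24421 gene entries, and each has 1 entry.

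The libraries fall into 16 groups of 3. Of these, 12 groups came from mice with the genotype label Aldh1l1-GFP, a reporter in which the promoter of an astrocyte enzyme drives green fluorescent protein (GFP), with the treatment label Gq-CNO or Gq-Saline: 6 groups of GFP astrocytes and 6 of mCherry (mCh) cells titled as neurons, from olfactory bulb, cortex and hippocampus. CNO is clozapine-N-oxide, the ligand of designer receptors, and Gq names the G protein of the receptor. The titles do not say which cells carried it. Another 2 groups are GFP astrocytes from the olfactory bulb of Aldh1l1-GFP mice, labelled CNO-control or untreated. The last 2 are mCh cells titled as astrocytes from the olfactory bulb of Slc22a3-FF mice, which carry floxed Slc22a3 in both groups, treated with Gfap-mCh (flox control) or with Gfap-Cre (labelled Slc22a3-cKO). The Gfap promoter thus drives either mCh or Cre, and the sources used here give no age or strain. Headers of the deposited columns name the colour mCh in the flox controls and RFP in those labelled Slc22a3-cKO, while titles give mCh for both. A difference in the sort therefore cannot be told apart from the difference in label. The labels do not say whether libraries of a group came from separate animals, and every p-value therefore rests on library-to-library spread alone, part of which may be technical.

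Monoamine oxidases sit on the outer mitochondrial membrane and deaminate monoamines to aldehydes, which aldehyde dehydrogenases oxidise further. MAO-A prefers serotonin and noradrenaline, MAO-B prefers phenylethylamine, and in the brain MAO-B is known as an enzyme of astrocytes and of serotonergic neurons. Ddc makes dopamine from L-DOPA and serotonin from 5-hydroxytryptophan, while the hydroxylases before it need tetrahydrobiopterin. Tgm2 joins glutamine side chains of proteins to amines, and it is the enzyme that attaches serotonin or dopamine to glutamine on histone H3.

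Maoa (ENSMUSG00000025037.6) lies on the forward strand of chromosome X between 16619698 and 16687818 of mm10, and Maob (ENSMUSG00000040147.14) on the reverse strand between 16709282 and 16817366. Their 3′ ends face each other across 21463 bases. Ddc (ENSMUSG00000020182.16) spans 11814101 to 11898144 of chromosome 11, Qdpr (ENSMUSG00000015806.12) 45434021 to 45450236 of chromosome 5, and Gch1 (ENSMUSG00000037580.10) 47153895 to 47189413 of chromosome 14, all 3 on the reverse strand. Slc18a2 (ENSMUSG00000025094.8) spans 59260896 to 59296012 of chromosome 19 on the forward strand, and Tgm2 (ENSMUSG00000037820.15) 158116402 to 158146436 of chromosome 2 on the reverse strand.

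RefSeq promoter sequence of build GRCm38.p6 was at hand for 5 of the 7 genes. The 250 bases before the start site are shown for Maoa and Qdpr, since Maoa was higher in GFP astrocytes than in mCh cells of cortex and hippocampus and Qdpr was higher in mCh cells of all 3 regions. Each is written 5′ to 3′ on the gene's own strand, and capitals mark the GC box GGGCGG or its reverse complement CCGCCC.
Maoa, chrX:16619448-16619697, forward strand: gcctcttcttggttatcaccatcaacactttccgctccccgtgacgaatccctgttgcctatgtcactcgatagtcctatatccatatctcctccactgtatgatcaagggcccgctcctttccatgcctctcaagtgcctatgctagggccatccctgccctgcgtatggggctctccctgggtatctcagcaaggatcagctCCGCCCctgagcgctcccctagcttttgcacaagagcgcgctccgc
Qdpr, chr5:45450230-45450479, reverse strand: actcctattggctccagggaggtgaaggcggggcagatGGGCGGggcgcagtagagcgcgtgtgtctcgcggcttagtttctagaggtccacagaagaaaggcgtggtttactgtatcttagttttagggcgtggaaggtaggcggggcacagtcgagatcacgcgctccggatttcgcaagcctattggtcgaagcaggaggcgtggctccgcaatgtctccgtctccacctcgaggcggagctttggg
Each window holds 1 GC box, and neither holds TATAAA on either strand. Of 32851 promoter windows of the same length, 32.7% hold a GC box and 12.4% hold TATAAA, so a GC box is common and a match is a description of these letters. The Gch1 window holds 2 GC boxes and 1 TATAAA, the Slc18a2 window 2 GC boxes, and of the 2 Ddc windows 1 holds TATAAA and neither holds a GC box.

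Library depth, in M (1000000) gene reads, ran from 0.228 M to 24.66 M with a median of 5.707 M, and 2 libraries lay under 0.5 M: an unnumbered cortical GFP Gq-CNO library (0.325 M) and cortical mCh Gq-CNO 3 (0.228 M). Levels are given as reads per 1000000 (RPM, a gene's reads per 1000000 gene reads of its library) or, between genes, as RPM per kilobase of exons (RPKM). The targeted gene Slc22a3 had 0 reads in all 3 flox controls and 0, 0 and 12 reads in the libraries labelled Slc22a3-cKO, so it does not check these labels. Summed over 10 markers, astrocyte transcripts made up 43040 to 128800 RPM in the 24 GFP libraries. In the 18 mCh libraries titled neurons, 9 neuron markers summed to 1524 to 4471 RPM, 8 microglia markers to 2784 to 10300 RPM, 7 oligodendrocyte markers to 18130 to 59790 RPM and the astrocyte markers to 5126 to 20490 RPM, so neuron markers were not the leading ones and these are called mCh libraries here. In the 6 mCh libraries titled astrocytes, astrocyte markers summed to 1679 to 11060 RPM, beside 3828 to 9022 RPM for microglia markers, so their title is kept here as a label only. In such bulk libraries, fewer cells of a type and less RNA per cell cannot be told apart.

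**Figure D1:**
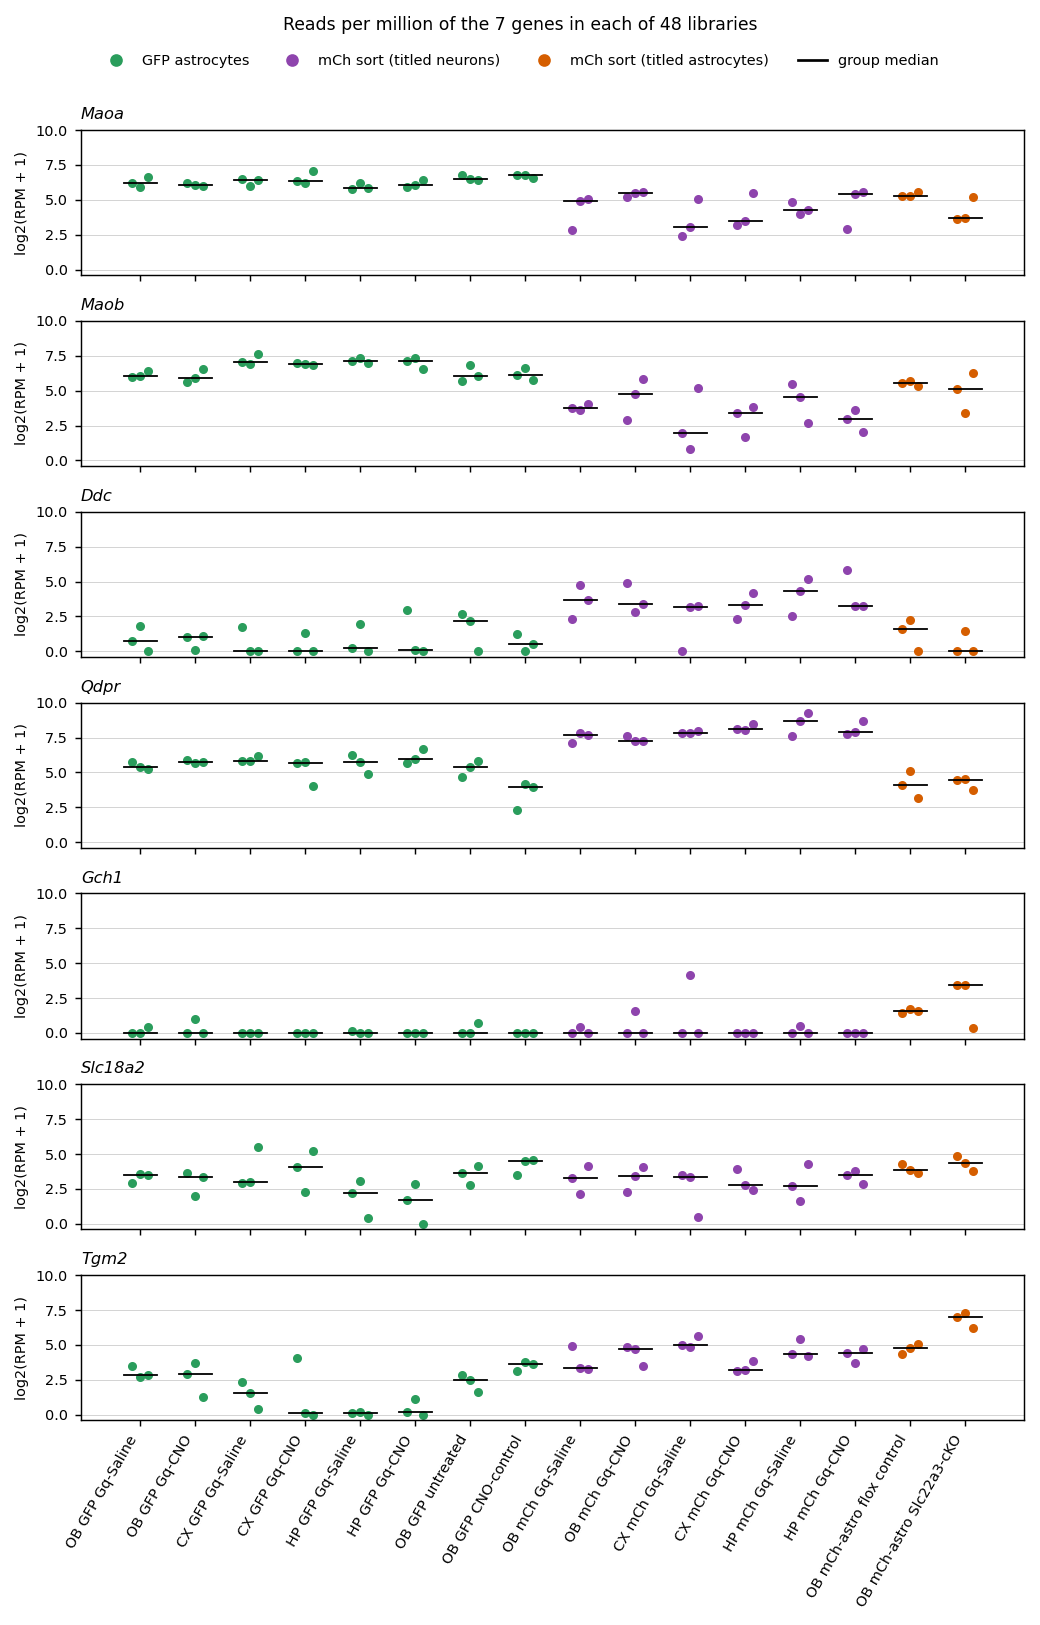
Level of each of the 7 genes in every library, as log2(RPM + 1), 1 panel a gene and 1 column of points for each of the 16 groups, with 1 point a library and a bar at the group median. Maoa and Maob are highest in GFP astrocytes, Qdpr in mCh cells and Tgm2 in the libraries labelled Slc22a3-cKO, while Gch1 lies at 0 in 34 of 48 libraries.

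Per kilobase, Maob had the highest median over all GFP libraries and Qdpr over the mCh libraries of the Gq mice. In the bulb Gq GFP libraries Qdpr stood first, with a median of 28.8 RPKM against 22.89 for Maob. Maob led in the cortical (43.99 against 30.25) and hippocampal ones (50.76 against 31.81). In the 24 GFP libraries the median level was 37.2 RPKM for Maob, 28.8 for Qdpr and 18.4 for Maoa, followed by 1.63 for Slc18a2, 0.661 for Tgm2, 0.0694 for Ddc and 0 for Gch1. In the 18 mCh libraries of the Gq mice Qdpr stood at 126.1 RPKM, and Maoa at 6.84, Tgm2 at 4.36, Maob at 4.03, Ddc at 1.95 and Slc18a2 at 1.73 lay far below it. The mCh libraries titled astrocytes had 15.06 RPKM of Maob, 11.4 of Tgm2, 10.38 of Qdpr and 8.896 of Maoa. Neighbours in these orders overlapped over libraries, with 2 exceptions: in GFP libraries the lowest Maoa level (13.1 RPKM) lay above the highest of Slc18a2 (8.59 RPKM), and in mCh cells the lowest Qdpr level (78.1 RPKM) lay above the highest of any of the other 6 genes (19.81 RPKM, for Maob).

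Both oxidases were found in every library. Maob at 0.791 and 2.88 RPM in cortical mCh Gq-Saline 2 and 1 lay below the 2.37 and 4.32 RPM that 3 reads are there. Ratios from such libraries rest on few reads. Maoa, the oxidase of serotonin and noradrenaline, ranged from 54.7 to 135 RPM over the 24 GFP libraries, with a median of 76.7. It was nearly level across regions, at 72.3 ± 13.8 RPM in olfactory bulb, 87.6 ± 25.1 in cortex and 65.7 ± 10.6 in hippocampus (SD, n = 6 Gq libraries each). Maob ranged more widely, from 47.3 to 195 RPM with a median of 104.

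Maob was lower in the olfactory bulb than in the other regions. The 6 Gq GFP libraries had 62.0, 65.7 and 85.9 RPM (saline) and 47.3, 58.3 and 92.4 RPM (CNO) in the olfactory bulb, 134, 121 and 195 RPM and 123, 122 and 114 RPM in the cortex, and 141, 160 and 125 RPM and 142, 163 and 94.5 RPM in the hippocampus. All 6 Gq bulb libraries lay below all 12 others, with 92.4 RPM as their highest value and 94.5 RPM as the lowest elsewhere, while cortex and hippocampus overlapped. The bulb GFP libraries outside this comparison had 50.2, 111 and 66.1 RPM (untreated) and 69.3, 96.2 and 54.1 RPM (CNO-control), 2 of them above that lowest value. On log2(value + 1) of reads scaled jointly over the 18 GFP libraries, Maob fell by 1.15 from cortex to bulb (SE 0.231, 95% interval -1.63 to -0.67, limma adjusted p = 0.00365) and by 1.12 from hippocampus to bulb (SE 0.231, adjusted p = 0.00481). The median of all tested genes was higher in the bulb, by 0.40 against cortex and 0.20 against hippocampus on this scale, and relative to it the Maob differences were -1.55 and -1.32. Between cortex and hippocampus Maob differed by 0.03 (95% interval -0.45 to 0.51).

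Of 6 members tested, 1 was called between bulb and cortex, where 5.02% of all genes were called, and 2 between bulb and hippocampus, where 3.65% were. The 10 astrocyte markers summed to 51320 to 59990 RPM in the bulb GFP libraries, 78510 to 128800 RPM in the cortical and 89540 to 117200 RPM in the hippocampal ones, in the same order as Maob, and their part in the result was not tested. Of these 10 markers, 4 were called lower and 1 higher in bulb than in cortex. In mCh cells the Maob difference between bulb and cortex was 1.47 (95% interval -0.23 to 3.17). The region difference in GFP less that in mCh was -2.65 (SE 0.831, adjusted p = 0.0781 over 13832 genes, of which 2.55% passed), so a difference between the sorts was not shown.

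The 2 oxidases also stood in different proportion by region. The ratio of Maob to Maoa per kilobase had a median of 3.402 in hippocampal GFP libraries (1.70 to 3.85), 2.40 in cortical (1.26 to 3.51) and 1.31 in bulb ones (0.969 to 2.15). It was above 1 in 17 of 18 Gq GFP libraries and in all 6 mCh libraries titled astrocytes, and in 7 of the 18 other mCh libraries, where the median was 0.784. Over all 48 libraries, log2(RPM + 1) of Maoa and Maob had a Pearson r of 0.78, a description of libraries that share cell type and depth.

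**Figure D2:**
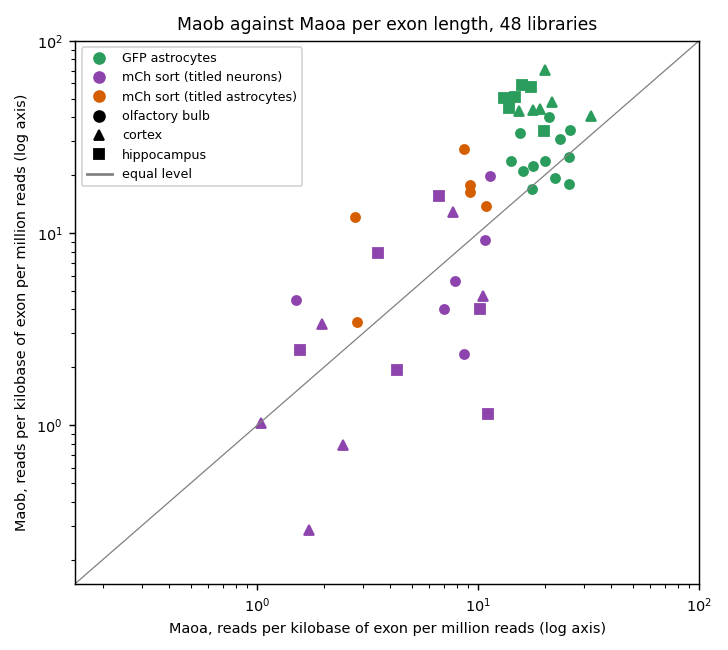
Maob against Maoa in each of the 48 libraries, in RPKM on log axes, coloured by sort and shaped by region, with a line of equal level. Most GFP libraries (20 of 24) and all 6 mCh libraries titled astrocytes lie above the line, and 7 of the 18 other mCh libraries do.

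Between the sorts, both oxidases were higher in GFP astrocytes. Maoa in mCh cells had 6.27, 29.3 and 32.9 RPM (saline) and 35.8, 44.7 and 47.1 RPM (CNO) in the bulb, 4.32, 7.12 and 32.1 and 8.15, 10.2 and 43.9 in the cortex, and 27.8, 14.7 and 17.96 and 6.47, 42.6 and 46.3 in the hippocampus. Every one of these lay below the lowest GFP value of the same region (58.5, 63.7 and 54.7 RPM). Maoa was higher in GFP cells by 2.88 in cortex (log2 scale, SE 0.501, limma adjusted p = 1.26e-05) and 1.71 in hippocampus (adjusted p = 0.00827), and the 1.37 in bulb did not pass in limma (95% interval 0.36 to 2.38, adjusted p = 0.0583) but did in edgeR (0.0400) and DESeq2 (0.0282). It was called in 7 of 18 alternatives in bulb, and the hippocampal call was lost without mCh Gq-CNO 1 (adjusted p = 0.0563).

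Maob was called in all 3 regions, by 2.01 in bulb (SE 0.588, adjusted p = 0.0134), 4.66 in cortex (adjusted p = 2.70e-08) and 3.77 in hippocampus (adjusted p = 2.47e-06). Its mCh levels were 0.791 to 35.8 RPM in cortex and 3.19 to 43 RPM in hippocampus, apart from the GFP ranges. In bulb the mCh range of 6.57 to 55.3 RPM reached into the GFP range of 47.3 to 92.4 RPM, and the bulb call was lost without mCh Gq-CNO 1 (adjusted p = 0.0722).

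Qdpr and Ddc ran the other way. Qdpr, whose enzyme dihydropteridine reductase recycles tetrahydrobiopterin, had a median of 175.8 RPM in bulb mCh cells (139.6 to 226.6), 254 in cortex (220.6 to 359.6) and 317 in hippocampus (196.9 to 602), against 51.5, 54.1 and 56.9 RPM in the GFP libraries, whose highest value was 100.7 RPM. The sorts did not overlap in any region. Qdpr was lower in GFP cells by a log2 difference of -1.85 in bulb (SE 0.307, adjusted p = 1.64e-05), -2.38 in cortex (adjusted p = 4.67e-08) and -2.34 in hippocampus (adjusted p = 9.42e-08).

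Ddc transcripts were scarce in astrocytes. The gene had 0 reads in 9 of 24 GFP libraries and at most 6.97 RPM, with a median of 0.310, while 17 of 18 mCh libraries had reads, up to 55.2 RPM with a median of 8.72. The log2 differences of GFP from mCh cells were -3.75 in bulb (SE 1.06, adjusted p = 0.0101), -3.24 in cortex (adjusted p = 0.0155) and -4.32 in hippocampus (adjusted p = 0.00146). Mean jointly scaled values there were 3.48, 2.62 and 6.60 in GFP cells against 55.7, 31.5 and 86.3 in mCh cells. Ddc thus passed the low-value filter mainly through mCh libraries, and the added 1 weighs on the size of these differences. These calls add no support beyond the reads given above. Ranges were apart only in the bulb, and the cortical call did not hold in edgeR (adjusted p = 0.0691), without mCh Gq-Saline 3 (0.0507), without both libraries under 0.5 M (0.0779) or with the replicate number as a block (0.0818).

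Tgm2 was also higher in mCh cells, most of all against hippocampal astrocytes. Hippocampal GFP libraries had 0.1, 0.164 and 0 RPM (saline) and 0.162, 1.22 and 0 RPM (CNO), against 12.3 to 41.8 RPM in hippocampal mCh cells. Cortical GFP libraries had 4.07, 1.95 and 0.340 RPM and 15.4, 0.0611 and 0 RPM, where the 15.4 rests on 85 reads of Gq-CNO 1 and the 0 belongs to the library of 0.325 M, in which 3 reads are 9.23 RPM. Cortical mCh cells had 7.75 to 49.4 RPM. GFP less mCh, the log2 difference was -5.64 in hippocampus (SE 0.861, adjusted p = 1.70e-06), -3.69 in cortex (adjusted p = 7.58e-04, and 0.0618 in edgeR) and -1.38 in bulb (95% interval -3.12 to 0.37, adjusted p = 0.337). In hippocampus the mean jointly scaled value was 1.10 in GFP cells against 88.8 in mCh cells. The added 1 therefore weighs on the size there, and the hippocampal call adds no support beyond the levels given above.

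Slc18a2 was not called between the sorts in any region, with log2 differences of -0.03, 1.43 and -1.87 in bulb, cortex and hippocampus and adjusted p of 0.993, 0.231 and 0.118. Gch1 was too low for the fit. In all, limma called 3 of 6 tested members in bulb, where 15.1% of all genes were called, 5 of 6 in cortex, where 32% were, and 5 of 6 in hippocampus, where 27% were. edgeR called 4, 3 and 5 members (16.1%, 30.2% and 29.1% of all genes) and DESeq2 4, 5 and 5 (18.7%, 34.8% and 31.9%). All 10 astrocyte markers were higher in GFP cells in all 3 regions, and all 8 microglia and all 7 oligodendrocyte markers were lower, and their part in the members' differences was not tested.

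**Figure D3:**
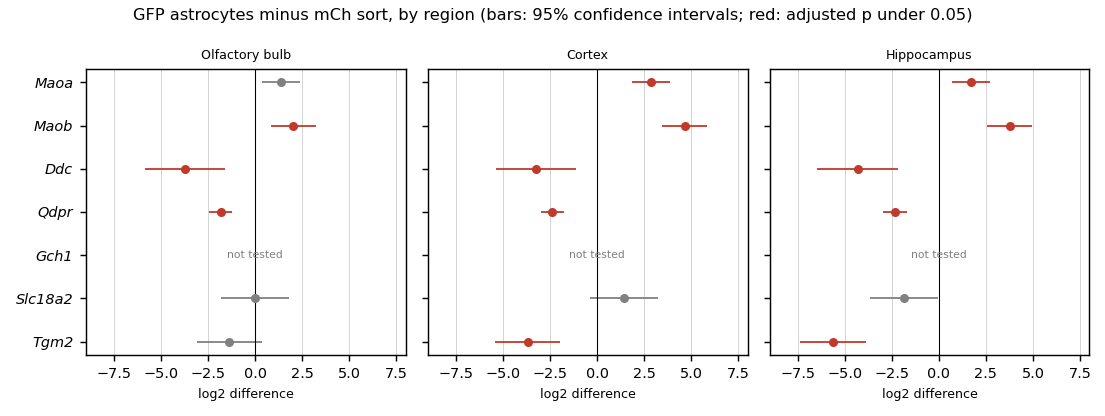
Difference of GFP astrocytes from mCh cells for each tested gene and region, as the limma log2 difference on jointly scaled reads with its 95% interval. Red marks an adjusted p under 0.05: Maob lies to the right of 0 and Qdpr and Ddc to the left in all 3 regions, and Slc18a2 crosses or nears 0 with no call.

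Within mCh cells no member was called between regions, at backgrounds of 8.58% (bulb against cortex), 3.91% (bulb against hippocampus) and 0.388% (cortex against hippocampus) in limma. At an unadjusted limma p under 0.05 there was 1 member, Qdpr, in each of the first 2 comparisons and 0 in the third. edgeR and DESeq2 called 0 members between bulb and cortex (background 6.4% and 10.9%) and between cortex and hippocampus (0.445% and 1.49%), and both called Qdpr between bulb and hippocampus (4.45% and 6.3%). There Qdpr had a limma log2 difference of -0.83 (SE 0.257, 95% interval -1.35 to -0.31, adjusted p = 0.0623). Its adjusted p was 0.0136 in edgeR and 0.0112 in DESeq2.

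Qdpr levels were set beside 11 marker lists, of which the oligodendrocyte list gave the highest r over all 48 libraries and over the 18 mCh libraries. Over the 18 mCh libraries, log2 Qdpr and the log2 summed level of the 7 markers had a Pearson r of 0.757, and over all 48 libraries 0.797. Over the 24 GFP libraries it was -0.245. The olfactory ensheathing glia list gave 0.755 over the mCh libraries and the border macrophage list -0.687, and over all 48 the oligodendrocyte precursor list gave 0.778. These points share library and depth, so the values are descriptions.

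**Figure D4:**
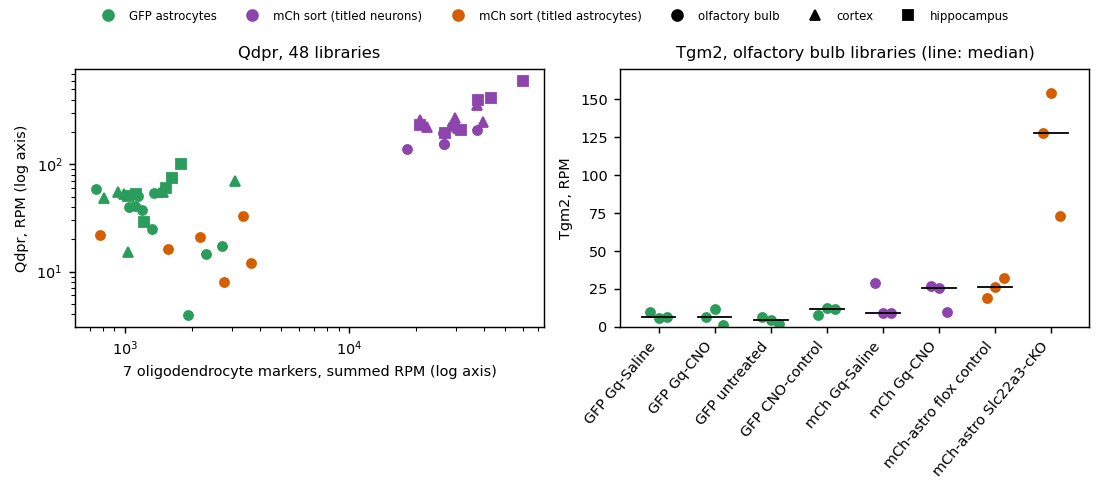
Left, Qdpr in RPM against the summed RPM of 7 oligodendrocyte markers in each of the 48 libraries on log axes, coloured by sort and shaped by region. The 18 mCh libraries form the upper right group, at 139.6 RPM of Qdpr or more. Right, Tgm2 in RPM in each olfactory bulb library by group with a line at the median, where the libraries labelled Slc22a3-cKO (73.0 to 154 RPM) lie above all others.

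Among the astrocytes, Tgm2 levels lay higher in bulb than in hippocampal libraries. Bulb GFP libraries had 10.1, 5.62 and 6.16 RPM (saline) and 6.55, 12.03 and 1.42 RPM (CNO), all above the 6 hippocampal values, the highest of which was 1.22 RPM. The log2 difference was 4.30 (SE 1.13, 95% interval 1.95 to 6.65, limma adjusted p = 0.0317, and 0.0297 in edgeR). Mean jointly scaled values were 45.9 in bulb and 1.84 in hippocampus, so the added 1 weighs on the size of this difference. With 23 reads over the 6 hippocampal libraries, Tgm2 passed the low-value filter mainly through bulb libraries. The call thus adds no support beyond the levels given above. The call was lost in 10 of 12 fits that left out 1 library of these groups, with adjusted p up to 0.0980, so it lies at the threshold. All 5 olfactory ensheathing glia markers were called higher in bulb than in hippocampal GFP libraries, and their part in the result was not tested.

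Between cortex and hippocampus 0 of 6 members were called by limma in GFP cells (background 0.147%), with 1 at an unadjusted p under 0.05 (Slc18a2). edgeR called 0 (0.163%), while DESeq2 called Slc18a2 and Tgm2 (1.76%). Slc18a2, which loads monoamines into vesicles, had 19.18 ± 17.46 RPM in cortical GFP libraries against 3.35 ± 3.08 in hippocampal ones (SD, n = 6 each), a limma log2 difference of 2.99 (SE 1.00, adjusted p = 0.323). The ranges overlapped, at 3.97 to 44.9 and 0 to 7.58 RPM.

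The synthesis gene Gch1, whose enzyme takes the first step towards tetrahydrobiopterin, was near the detection limit. It had 335 reads over all 48 libraries and 0 reads in 34 of them, among them all 6 cortical GFP libraries, where 3 reads are 0.183 to 9.23 RPM. Reads were found in all 6 mCh libraries titled astrocytes, from the bulb, with 17, 29 and 18 reads (1.76, 2.33 and 2.02 RPM) in flox controls and 82, 134 and 2 reads (9.68, 10.0 and 0.267 RPM) in the libraries labelled Slc22a3-cKO. Elsewhere the highest level was 16.6 RPM, from 21 reads in 1 cortical mCh Gq-Saline library.

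Comparing Gq-CNO with Gq-Saline asks whether the designer-receptor ligand changed these transcripts, and no member was called in any of the 6 pairs of groups. In GFP cells 5 members were tested in bulb and 4 each in cortex and hippocampus, and in mCh cells 6 in every region. limma called 0.00847% of all genes in bulb GFP cells and 0% in each of the other 5. In limma no member had an unadjusted p under 0.05, although 564, 142 and 234 genes did in bulb, cortical and hippocampal GFP cells, and 556, 428 and 445 in the mCh cells. In DESeq2, Tgm2 had an unadjusted p of 0.0203 in cortical mCh cells (log2 difference -2.07, adjusted p = 0.527). edgeR called 0 members and 0% of genes in all 6, and DESeq2 called 0 members, with 0.009%, 0% and 0.0439% of genes called in bulb, cortical and hippocampal GFP cells and 0.0191%, 0.0541% and 0.133% in the mCh cells.

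In bulb astrocytes the values with CNO and saline overlapped for every tested member. Maoa had 73.0, 66.3 and 64.3 RPM with CNO and 73.9, 58.5 and 97.9 RPM with saline, a log2 difference of -0.14 in normalised reads (95% interval -0.70 to 0.42). Maob differed by -0.14 (-0.74 to 0.45), Qdpr by 0.32 (-0.29 to 0.94), Slc18a2 by -0.37 (-1.82 to 1.07) and Tgm2 by -0.51 (-2.22 to 1.19). For the oxidases and Qdpr these intervals leave out a 2-fold change in either direction, and for Slc18a2 and Tgm2 they do not. In cortical GFP cells they were wider, from -2.57 to 2.74 for Slc18a2, and a 2-fold change in at least 1 direction lies within those of all 4 tested members there. The interval was -5.50 to 3.30 for Slc18a2 in hippocampal GFP cells and -3.53 to 0.64 for Maob in hippocampal mCh cells (log2 difference -1.44). The lack of calls therefore does not show a lack of change.

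Groups were apart for 1 member in cortical GFP cells, in bulb mCh cells and in cortical mCh cells, where 8.89%, 10.6% and 9.64% of all genes had groups apart, and for no member in bulb GFP, hippocampal GFP and hippocampal mCh cells (9.88%, 8.85% and 9.48%). The 3 were Qdpr in cortical GFP cells (log2 difference -0.78, 95% interval -2.04 to 0.48), Maoa in bulb mCh cells (1.16, -0.13 to 2.45) and Tgm2 in cortical mCh cells (-1.93, -4.07 to 0.21). Tgm2 there had 7.75, 8.03 and 13.2 RPM with CNO against 31.6, 27.7 and 49.4 RPM with saline. The lowest cortical GFP value of Qdpr, 15.4 RPM, rests on 5 reads in the library of 0.325 M. Members too low for the fit, 13 cases of Ddc, Gch1 and Tgm2 over these 6 comparisons and CNO-control against untreated, gave two-sided exact permutation p of at least 0.4 (all 1 after adjustment over the 13), and 3 against 3 cannot give less than 0.1.

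**Figure D5:**
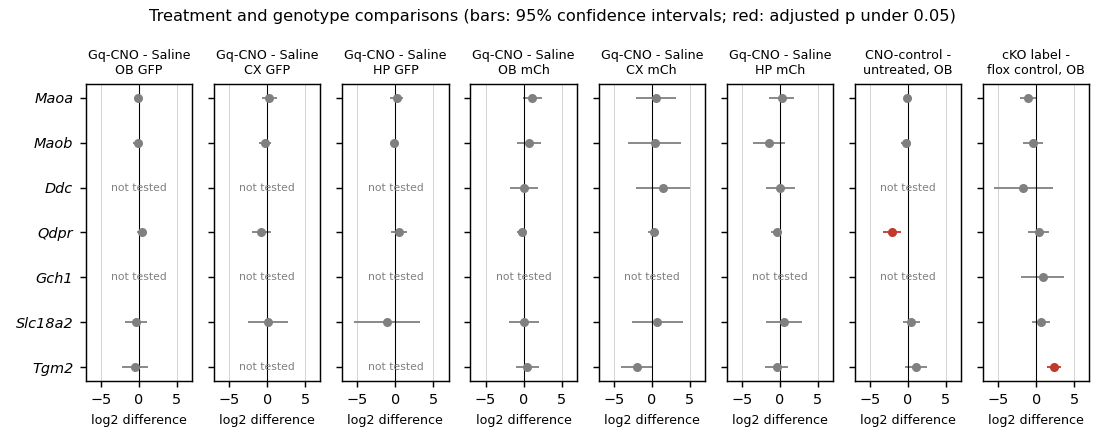
limma log2 difference with its 95% interval for each tested gene in the 8 comparisons of 2 groups, on log2(normalised reads + 1). Only Qdpr in CNO-control against untreated and Tgm2 in the libraries labelled Slc22a3-cKO are red, the colour for an adjusted p under 0.05.

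In bulb astrocytes of mice labelled CNO-control, Qdpr was lower than in untreated ones. The untreated libraries had 24.9, 40.0 and 55.6 RPM (59, 69 and 165 reads) and the CNO-control libraries 3.93, 17.2 and 14.7 RPM (26, 148 and 105 reads). The groups did not overlap, as for 32.9% of all genes in this comparison. In normalised reads, 43.5 against 175.7 on average, Qdpr fell by 2.16 on the log2 scale (SE 0.533, 95% interval -3.31 to -0.999, limma adjusted p = 0.0208), where the median of all genes was 0.11. It was the only 1 of 5 tested members called, beside 12.2% of all genes called in either direction and 6.88% called lower.

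The other members' groups overlapped in CNO-control and untreated libraries. Maoa had 107, 109 and 92.3 RPM against 107, 87.5 and 84.0 RPM, and its direction turned with the scaling: the mean was higher with CNO-control in RPM and lower in normalised reads (log2 difference -0.11, 95% interval -0.57 to 0.35). Maob differed by -0.27, Slc18a2 by 0.45 and Tgm2 by 1.09, with adjusted p of at least 0.316. Tgm2 had 7.55, 12.6 and 11.5 RPM against 6.33, 4.64 and 2.02 RPM.

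The Qdpr call was lost without CNO-control 1 (adjusted p = 0.0533) or without untreated 3 (adjusted p = 0.0697). Other transcripts moved with the same labels. Microglia markers summed to 415 to 544 RPM in untreated and 98.5 to 165 RPM in CNO-control libraries (6 of 8 called lower), oligodendrocyte markers to 1044 to 1458 and 1910 to 2722 RPM (1 called higher and 1 lower of 6 tested), and olfactory ensheathing glia markers to 782 to 1150 and 1713 to 3068 RPM (4 of 5 called higher). Astrocyte markers summed to 55480 to 60180 and 43040 to 49800 RPM (4 of 10 called lower), and depth was 1.73 to 2.96 M reads in untreated and 6.62 to 8.58 M in CNO-control libraries. Border macrophage markers summed to 83.5 to 145 and 5.29 to 23.1 RPM (3 of 3 tested called lower, Pf4 at 0 in CNO-control), with 1 of 6 endothelial markers called lower and 1 of 9 neuron markers higher. Their part in the result was not tested.

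The libraries labelled Slc22a3-cKO had more Tgm2 than the flox controls. Tgm2 reached 1317, 1692 and 699 normalised reads (1081, 2064 and 547 reads as counted, 73.0 to 154 RPM) against 169, 239 and 294 (186, 331 and 286 reads, at most 32.1 RPM). The groups did not overlap, as for 22.7% of all genes here, and the libraries labelled Slc22a3-cKO held the highest 3 Tgm2 levels of all 48. In normalised reads, 1236 against 234 on average, Tgm2 rose by 2.34 on the log2 scale (SE 0.420, 95% interval 1.42 to 3.26, limma adjusted p = 0.0160), 5.06-fold. The median of all genes was -0.10, and relative to it the difference was 2.44. Tgm2 was 1 of 7 tested members called, beside 2.53% of all genes called in either direction and 1.37% called higher.

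The exons of Tgm2 overlap those of Rprd1b by 370 bases and those of Gm20412, not analysed here, by 633 bases, both on the opposite strand, and whether counting used strand is not given in the sources used here. Rprd1b had 34.0, 18.7 and 48.03 RPM in the libraries labelled Slc22a3-cKO and 36.1, 23.4 and 17.2 RPM in the flox controls, with overlapping groups (log2 difference 0.55, SE 0.482, adjusted p = 0.603). In cortical mCh cells Rprd1b had the sign of Tgm2 between Gq-CNO and Gq-Saline (-1.98, SE 1.16). So it did in CNO-control against untreated (1.00), bulb against cortical GFP cells (3.00, limma adjusted p = 0.0369) and GFP less mCh in cortex (-1.80). It ran the other way for GFP less mCh in bulb (1.31) and hippocampus (0.83) and in cortical against hippocampal GFP cells (-2.86). The part of the overlap in the Tgm2 results was not tested.

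No other member was called there. Maoa had 11.6, 11.7 and 36.02 RPM against 38.3, 38.1 and 45.2 RPM, with every library labelled Slc22a3-cKO below the flox controls in RPM but overlapping in normalised reads (log2 difference -1.06, 95% interval -2.15 to 0.04, adjusted p = 0.292). Maob had 33.8, 9.64 and 76.4 RPM against 45.5, 49.7 and 38.5 RPM (-0.41, -1.72 to 0.90). Ddc differed by -1.68, Qdpr by 0.31, Gch1 by 0.83 and Slc18a2 by 0.58, with adjusted p of at least 0.625.

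The Tgm2 call was lost without flox control 1 or without either library 1 or library 2 of those labelled Slc22a3-cKO, with adjusted p up to 0.0889 and a log2 difference of at least 2.07 in each. Astrocyte markers summed to 1679 to 4371 RPM in the libraries labelled Slc22a3-cKO and 5337 to 11060 RPM in the flox controls (3 of 10 called lower), and neuron markers to 374 to 1093 and 1385 to 3875 RPM (2 of 9 called lower). Microglia markers summed to 4424 to 8119 and 3828 to 9022 RPM (0 of 8 called), border macrophage markers to 426 to 589 and 550.5 to 1383 RPM (0 of 5 called), and oligodendrocyte markers to 777 to 3660 and 1565 to 3385 RPM (0 of 7 called). Olfactory ensheathing glia markers had 0 of 5 called. No astrocyte, neuron, microglia or oligodendrocyte marker was at 0 in either group as a whole. Their part in the result was not tested.

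Other genes of the same steps were read from 4 lists: 15 of monoamine and tetrahydrobiopterin synthesis, 12 of monoamine breakdown, 10 of vesicular and membrane transport and 9 transglutaminases, members included. In GFP against mCh cells, 5 of 10 tested breakdown genes were called higher in cortex and in hippocampus and 3 in bulb, beside 15%, 11.3% and 5.3% of all genes called higher in cortex, hippocampus and bulb. Besides the oxidases these were aldehyde dehydrogenases: Aldh2 was higher in astrocytes by 1.25, 1.60 and 2.47 in bulb, cortex and hippocampus on the log2 scale, and Aldh1a1 by 2.87, 5.04 and 3.70. Aldh7a1 was higher by 4.69 in cortex and 2.10 in hippocampus. The aldehyde reductase gene Akr1a1 was called lower in bulb (-1.16) and cortex (-0.82).

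Among 10 tested synthesis genes, Ddc and Qdpr were called lower in astrocytes in all 3 regions. Called higher were Pts in bulb (1.40) and hippocampus (1.23) and Spr in cortex (2.61) and hippocampus (2.23), the 2 enzymes between Gch1 and finished tetrahydrobiopterin, with the histidine decarboxylase gene Hdc in cortex (2.75) and Tph2 in hippocampus (3.02). Tph2 had 5 reads over all 18 mCh libraries of the Gq mice and 0.4 to 10.6 RPM in hippocampal GFP libraries. It thus passed the low-value filter through GFP libraries, and the added 1 weighs on the size of its difference. The Tph2 call adds no support beyond these levels. Of 5 tested transporters, Slc29a4 was lower in bulb (-5.07) and cortex (-2.35) and Slc18b1 higher in cortex (3.29). Of 3 tested transglutaminases, F13a1, which is also a border macrophage marker, was lower in all 3 regions (-6.09, -6.97 and -4.70). Its medians in bulb, cortex and hippocampus were 0.787, 0.0916 and 1.12 RPM in GFP and 87.5, 42.4 and 45.8 RPM in mCh libraries. F13a1 thus passed the low-value filter mainly through mCh libraries, and the added 1 weighs on the size. These F13a1 calls add no support beyond its levels.

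The hydroxylases that start synthesis were found in part of the libraries. Th (tyrosine hydroxylase) had 0 reads in all cortical libraries and all hippocampal mCh libraries, 29 reads in 1 hippocampal GFP library, and a median of 4.88 RPM in bulb Gq GFP and 8.13 RPM in bulb Gq mCh libraries. In bulb GFP cells it had 5.51 to 16.1 RPM with saline and 3.05 to 4.25 RPM with CNO, and was not called. In normalised reads, 9.88% of all genes had groups apart there. The bulb mCh groups overlapped, at 3.13 to 21.1 RPM with saline and 4.08 to 23.6 RPM with CNO. The flox controls had 12, 524 and 18 reads of Th, the second of which, at 42.1 RPM, was the highest level. In GFP cells Th was called higher in bulb than in cortex (5.30) and hippocampus (4.78), Aldh1a1 lower (-1.19 and -2.03), and Slc29a4 lower in bulb than in hippocampus (-5.50). Th passed the low-value filter there mainly through bulb libraries, and the added 1 sets much of the size of its differences. Its calls thus add no support beyond the reads given above. Tph1 and Tph2 (tryptophan hydroxylases) were found in 19 and 17 of 48 libraries, with at most 9.50 and 10.6 RPM.

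In mCh cells Th was called higher in bulb than in cortex and hippocampus and Aldh7a1 higher in bulb than in cortex, and limma called no other list gene between regions. With 0 reads in the cortical and hippocampal mCh libraries, Th passed the low-value filter only through bulb libraries. Its calls there also add no support beyond its reads. No gene of the 4 lists was called between Gq-CNO and Gq-Saline. In CNO-control against untreated libraries, where 6.88% of all genes were called lower, 3 of 11 tested breakdown genes were, Aldh2 (-0.88), Aldh7a1 (-0.74) and Akr1a1 (-1.13), with 1 of 3 transglutaminases, F13a1 (-2.33), beside Qdpr. In the libraries labelled Slc22a3-cKO only Tgm2 was called, with 10, 11, 2 and 3 genes of the 4 lists tested.

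Patterns across all 48 libraries set Maoa and Maob beside the same gene. Among 8384 genes with a mean of at least 10 RPM, the Pearson r of log2(RPM + 1) was highest for Tead1 with both Maoa (0.86) and Maob (0.87), followed by Ttyh1 and Paqr8 for Maoa (0.85 each) and Cyp2d22 and Clcn3 for Maob (0.86 each). Qdpr was most like Map4 (0.94), Fth1 and Rpl13 (0.93 each), and Ddc most like the myelin-lineage genes Fa2h, Adamts4 and Mobp (0.80, 0.80 and 0.79). Tgm2 was most like Ptbp3 (0.86), Kdm7a and Skil (0.83 each), and Slc18a2 had no partner above 0.65 (Sp4, Cse1l and Lrrc59). Gch1 reached 1 RPM in 8 libraries, under the 24 needed. These values describe libraries that differ mainly in sort, region and depth.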

How the data were processed

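RNA was sequenced from sorted mouse cells in 48 libraries, prepared, per the labels, with 10 ng input of total RNA each and read from both ends. The 6 deposited tables hold normalised signal, which the authors made by dividing gene reads by a size factor of each library. Per the submitters' processing notes, FastQC 0.11.7, MultiQC 1.11, STAR 2.5.0a, DESeq2 1.30.1 and mm10 were used. The read counter, its use of strand and the annotation are not given in the sources used here. Whole reads were recovered by dividing a library's values by the smallest (100% of values within 0.05 of a whole number).

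Each of 8 pairs of groups was fitted over all genes with limma 3.58.1 (R 4.3.3) and a trend, on log2(signal + 1) of the deposited values, for genes with at least 10 in at least 3 libraries. Regions (18 libraries of a sort) and sorts (36 libraries) were fitted on recovered reads divided by joint size factors, since tables were normalised separately. Calls needed an adjusted p (Benjamini-Hochberg over all genes tested) under 0.05. edgeR 4.0.16 (quasi-likelihood) and DESeq2 1.42.0 on recovered reads, a pseudocount of 5, no filter, a replicate block and leaving out each library were alternatives. The fits were tested on simulated data. Fits without the 2 libraries under 0.5 M (1000000) reads and the tests of differences between effects were chosen after the data were seen.

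The 7 genes were named throughout, other list genes where called, with Th, Tph1, Tph2 and F13a1 named for their levels; 1 other gene of the rule is not reported here. For likeness, the 3 genes of highest r were named, leaving out gene models. Members and lists were chosen with earlier results of these data known. In the tables, 4 columns carry the number 4, which no title has, and were given a group but no replicate number. No library was left out. Exon lengths and positions come from GENCODE vM21, and promoters from RefSeq. Depth limits precision most for genes of few reads. PCR copies were not removed, so read floors cover counting error only.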

Additional observations from a re-analysis of the deposited data

How the results depend on the processing

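Of 18 called differences of members, 0 changed sign and 7 lost their call under some alternative, and of 79 not called, 35 changed sign and 4 were called under some alternative. The Maob region calls held in all 18 alternatives. In the libraries labelled Slc22a3-cKO the replicate block left 0 members called (Tgm2 adjusted p = 0.0608). Between bulb and hippocampus in GFP cells 1 was called with no filter (Tgm2 adjusted p = 0.0591), and DESeq2 called 2 between cortex and hippocampus. In mCh cells, bulb against hippocampus gave 1 (Qdpr) with edgeR, DESeq2, the block (adjusted p = 0.0331) and without both libraries under 0.5 M reads, and edgeR called 3 between the cortical sorts. Leaving out 1 library gave 0 to 1 called in CNO-control against untreated, in the libraries labelled Slc22a3-cKO and between bulb and hippocampus in mCh cells, 1 to 2 between bulb and hippocampus in GFP cells, and 2 to 4 (bulb), 4 to 5 (cortex) and 4 to 5 (hippocampus) between sorts. The cause was not tested.

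The titles give no pairing by replicate number. Numbers that open the headers of most Gq GFP columns run in order of replicate number, and their meaning is not given. The check did not meet the criterion for pairing, and the main fits treat libraries as independent. Of 30 pairs across regions, 14 across sorts and 22 across treatments, 1 had a correlation of deviations over 0.1 (0.117). In the same order, 19, 8 and 9 correlated best with their own number among the 3 libraries of the other group, where 1 in 3 would do so without pairing. This is a hint from the data and not from a stated design, and the main fits do not use it. The block called 4 members in bulb and 4 in cortex between sorts, and, apart from the 2 block values above, the main number elsewhere.

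Small differences of uncalled members turned sign, on the log2 scale. Between Gq-CNO and Gq-Saline these were Slc18a2 in cortical GFP cells (DESeq2 -0.074), Maoa and Qdpr in hippocampal GFP cells (block -0.013 and -0.23) and Maob in cortical mCh cells (edgeR -0.88, DESeq2 -0.84). Between regions they were Ddc in bulb against hippocampal GFP cells (edgeR -0.87, DESeq2 -0.83, pseudocount of 5 -0.074, block -0.43), Maob in cortical against hippocampal GFP cells (edgeR -0.0031, block -0.20) and Slc18a2 in bulb against hippocampal mCh cells (edgeR -0.0074).

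Leaving out 1 library moved the sign of these Gq-CNO differences: in bulb GFP cells Maoa (-0.33 to 0.094), Maob (-0.40 to 0.057), Slc18a2 (-0.76 to 0.21) and Tgm2 (-1.16 to 0.36), in cortical GFP cells Maoa (-0.069 to 0.51) and Slc18a2 (-0.71 to 1.03), and in hippocampal GFP cells Maoa (-0.046 to 0.34), Maob (-0.26 to 0.0049) and Slc18a2 (-2.33 to 0.64). In mCh cells they were Maob (-0.043 to 1.48), Ddc (-0.60 to 0.69) and Slc18a2 (-0.49 to 0.60) in bulb, Maoa (-0.19 to 1.36), Maob (-0.71 to 1.09) and Slc18a2 (-0.47 to 1.38) in cortex, and Maoa (-0.27 to 1.15), Ddc (-0.83 to 0.71) and Slc18a2 (-0.17 to 1.37) in hippocampus. Likewise moved Maoa (-0.20 to 0.036) and Maob (-0.49 to 0.018) in CNO-control against untreated, and Maob (-1.05 to 0.34), Qdpr (-0.18 to 0.82) and Gch1 (-0.018 to 2.46) in the libraries labelled Slc22a3-cKO. Between regions in GFP cells Qdpr moved for bulb against cortex (-0.33 to 0.054), Maoa (-0.079 to 0.14) and Ddc (-0.28 to 1.07) for bulb against hippocampus, and Maob (-0.11 to 0.11) and Ddc (-1.37 to 0.17) for cortex against hippocampus. In mCh cells Slc18a2 (-0.040 to 0.89) and Tgm2 (-0.48 to 0.0079) moved for bulb against cortex, Maoa (-0.083 to 0.75) and Slc18a2 (-0.25 to 0.52) for bulb against hippocampus, and Slc18a2 (-0.81 to 0.15) for cortex against hippocampus. Between the bulb sorts it was Slc18a2 (-0.32 to 0.26).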
